A study of Mus musculus with 4 samples.

Results

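Cell cycle genes were followed across the cell classes of mouse prostate tumours. The 38 genes were chosen by symbol as 22 genes of G2 and M phase and 16 genes of S phase, and all 38 were found among the 32285 genes of the feature lists. Single-cell RNA sequencing with 10x Genomics 3′ chemistry, which counts unique molecular identifiers (UMIs) of polyadenylated transcripts, gave 4 libraries, 2 labelled TKO and 2 labelled DKO. TKO tumours carried Nkx3.1CreERT2 with floxed alleles that include Smad4L/L and Pygo2L/L, and DKO tumours carried Nkx3.1CreERT2 with floxed alleles that include Smad4L/L, so the groups differ by Pygo2L/L and share the other alleles and the tamoxifen-inducible Cre. The design text calls the tumours nTKOLuc and nDKOLuc and names more than 1 interval after tamoxifen. No label ties a library to an interval. Cre is driven by Nkx3.1, a gene of prostate epithelium, so the immune and stromal cells described below are not the cells in which it is meant to act. Tumours were dissociated with enzymes and dead cells were removed by Annexin V before hashtag labelling and a combined load, so shares of cells refer to what passed these steps. Nothing in the labels says that the 2 libraries of a group came from separate animals, and a p-value given here can then speak only of how far libraries scatter, for which technical variation may account.

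The transcript of the additional floxed gene did not separate the labels. In epithelial-like cells Pygo2 had 25 and 4 UMIs (15.98 and 7.24 CPM, UMIs of the gene divided by all UMIs of the same cells and scaled to 1000000) in TKO libraries, against 10 and 33 UMIs (8.95 and 8.70 CPM) in DKO libraries. Which part of Pygo2 is deleted is not given in the sources used here, and 3′ reads from outside it would check nothing. TKO and DKO therefore stand below for the libraries so labelled. After filtering, 3381 of 3508 barcodes were kept, 617 to 1208 per library, with 9167770 to 18360201 UMIs per library and median depths of 8404 to 10310 UMIs per cell. No barcode was shared between libraries. Clustering without 200 cell cycle and histone genes gave 6 marker-defined classes with at least 20 cells in every library: 1334 neutrophil-like, 923 T- and NK-like, 218 dendritic-like, 201 epithelial-like, 186 macrophage- and monocyte-like and 157 fibroblast-like cells. The 12 T and NK markers, all detected, summed to 4164 to 5127 CPM per library in the T- and NK-like class, against 55.02 to 103 CPM in the neutrophil-like class, and the 10 neutrophil markers to 196 to 371 CPM, against 40964 to 57553 CPM. DKO replicate 1 stood apart for the genes described here. It held 87 T- and NK-like cells, 1 of them cycling by the rule given below. The T- and NK-like and dendritic-like differences in cycling share, and the T- and NK-like median fold change, are given with and without it. Counts of genes by the order of the libraries are given only with it.

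The 38 genes act in successive steps of cell division. In S phase the MCM proteins form the helicase that opens DNA at licensed origins, PCNA clamps the polymerases, and ribonucleotide reductase and thymidylate synthase supply DNA precursors. In G2 and M phase CDK1 with its A and B cyclins drives entry into mitosis, Aurora and Polo-like kinases and kinesins build the spindle, BUB kinases hold the checkpoint, and the anaphase-promoting complex with CDC20 and UBE2C then destroys the cyclins. Activated T cells divide in tissues, whereas mature neutrophils have left the cell cycle, so the neutrophil-like class is given beside the others as the class in which division is not foreseen.

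A cell was called cycling when Mki67 and Top2a together had at least 2 UMIs. Mki67 (ENSMUSG00000031004, chr7:135689784-135716361, minus strand, mm10) encodes the Ki-67 antigen of dividing cells. Top2a (ENSMUSG00000020914, chr11:98992943-99024189, minus strand) encodes the DNA topoisomerase that untangles replicated chromosomes. This rule took 214 cells. T- and NK-like cells made up 95 of them (44.4%), dendritic-like cells 35, macrophage- and monocyte-like cells 25, fibroblast-like cells 18, neutrophil-like cells 18, epithelial-like cells 11, unnamed clusters 9 and small classes the rest. The other 36 genes did not accompany the 2 gate genes equally in these cells.

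Over all cells, those that held both gate transcripts carried more of the other 36 genes than those that held only 1 of them. Of the 214 cycling cells, 87 (40.7%) had at least 1 UMI of each gate gene, 76 had only Mki67 and 51 had only Top2a. The cells with both genes had a median of 27 of the other 36 genes detected, against 4 in cells with only Mki67, 5 in cells with only Top2a and 2 in cells with no UMI of either. Summed over cells, the other 20 G2 and M phase genes stood at 1379 CPM in cells with both genes, at 129 CPM with only Mki67, at 136 CPM with only Top2a and at 79.7 CPM with neither. The 16 S phase genes stood at 1748 CPM with both genes, 301 CPM with only Mki67, 599.8 CPM with only Top2a and 271 CPM with neither. Depth moved with these kinds of cell: their median was 35560.0 UMIs with both genes, 22657 with only Mki67, 15399 with only Top2a and 8471 with neither. The number of genes detected in a cell depends on its depth. With every cell thinned to 2000 UMIs, cells with both genes had a median of 5 of the 36 genes, against 1 for either gene alone and 0 for neither.

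Cells with both gate genes were counted in each class. In T- and NK-like cells 50 of 923 (5.42%, exact 95% binomial interval 4.05 to 7.08%) held both genes, with the other 20 G2 and M phase genes at 1817 CPM against 149.9 CPM in cells with neither gene. Fibroblast-like cells had 11 such cells of 157 (7.01%), dendritic-like cells 8 of 218 (3.67%, with a median of only 11 of the other 36 genes), macrophage- and monocyte-like cells 7 of 186 (3.76%) and epithelial-like cells 7 of 201 (3.48%). In the neutrophil-like class, 0 of 1334 cells held both genes, which allows a share of up to 0.225%. Limits for a count of 0 are taken here and below as 3 over the number of cells. The exact 95% binomial interval of this count reached 0.276%. Intervals and limits of this kind cover counting error only. The 18 gated neutrophil-like cells were 15 with only Mki67 and 3 with only Top2a, at a median depth of 6843 UMIs in the class's cells with neither gene against 11136 UMIs in the same kind of T- and NK-like cells. In those 15 cells the other 20 G2 and M phase genes summed to 75.1 CPM, and in the 3 with only Top2a to 341 CPM, against 60.0 CPM in neutrophil-like cells with neither gene. Over all 18 these genes had 17 UMIs. Mki67 stood at 594 CPM and Top2a at 52.7 CPM in the 18 cells, and in TKO replicate 2 a single neutrophil-like cell held 17 of the 41 Mki67 UMIs of the class. Whether these transcripts came from the cells or from other cells was not tested. Dendritic-like cells with only Mki67 (22 cells) held these 20 genes at 76.6 CPM, below the 104 CPM of dendritic-like cells with neither gene.

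**Figure D1:**
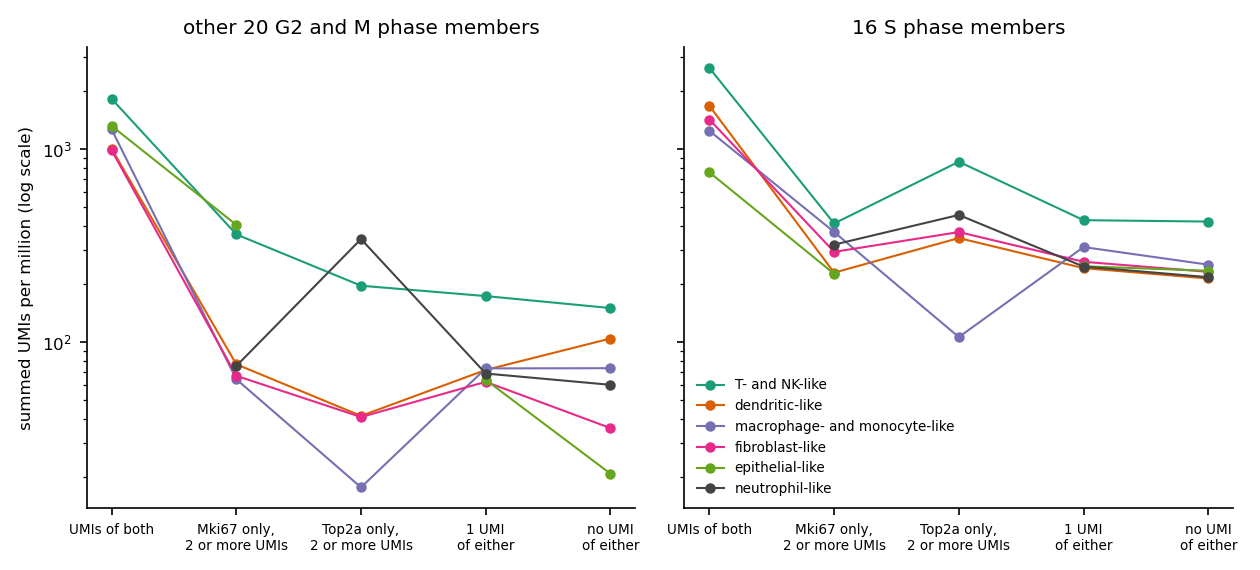
Summed level (CPM, log axis) of the 20 G2 and M phase genes other than Mki67 and Top2a, by cell class and by which of the 2 gate genes a cell held; points with under 3 cells are not drawn. Cells with both genes lie at 985 CPM or above in all 5 classes that have them, and the neutrophil-like class has no such cell.

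T- and NK-like cells with few gate UMIs held far less of the other G2 and M phase genes than cells with many. Those with 2 gate UMIs (40 cells) held the other 20 G2 and M phase genes at 193 CPM and those with 3 (7 cells) at 202 CPM, against 173 CPM with 1 UMI and 149.9 CPM with 0. The 48 cells with 4 or more gate UMIs held them at 1849 CPM. The 16 S phase genes stood at 375, 643 and 2758 CPM with 2, 3 and 4 or more UMIs, against 420 CPM with 0. At least 5 UMIs of the 20 genes were found in 25% and 28.6% of cells with 2 and 3 gate UMIs. With 1 and 0 gate UMIs these were 21.3% and 8.92%. The gate of 2 UMIs thus took T- and NK-like cells of both levels.

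Cycling T- and NK-like cells were then set against the other cells of that class, library by library, to see which of the 36 genes outside the gate followed it. Nearly all did. The comparison used the 3 libraries with at least 5 cycling cells in the class: TKO replicate 1 (43 cycling and 290 other cells), TKO replicate 2 (28 and 270) and DKO replicate 2 (23 and 182). By edgeR's quasi-likelihood test with the library as a block, 35 of the 36 genes were higher in cycling cells at a Benjamini-Hochberg adjusted p under 0.05 and none was lower. Of all 10028 genes tested, 9.36% were called higher and 5.8% lower. The median log2 fold change of the 36 genes was 3.95, against -0.03 over all genes. Mki67 and Top2a chose the cells, so their own differences are no result.

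Cyclin transcripts with wide gaps, Ccna2 and Ccnb2, stood beside Ccnb1 with a smaller one. Ccna2, the cyclin A of S phase and mitotic entry, had 69.0, 93.5 and 48.3 CPM in cycling cells of TKO replicates 1 and 2 and DKO replicate 2, against 0, 0.957 and 0 CPM in their other cells. Its transcript was nearly confined to the cycling cells of these 3 libraries (fitted log2 fold change 7.56 ± 0.48, SE; adjusted p = 1.02e-05, edgeR), a fitted value that depends on the prior count where libraries are at 0. Ccnb2, a B-type cyclin, had 60.9, 93.5 and 40.7 CPM in cycling cells, against 0.543, 1.28 and 0.798 CPM (log2 fold change 6.16 ± 0.34). Ccnb1, the B cyclin required for mitosis in mouse, differed less, at 8.11, 13.4 and 24.1 CPM in cycling cells against 1.36, 0.638 and 1.596 CPM (3.51 ± 0.59). Cdk1, the kinase all 3 cyclins bind, had 96.4, 127 and 95.02 CPM against 3.799, 3.83 and 3.59 CPM (4.80 ± 0.22). For Ccnb2, Ccnb1 and Cdk1 too, every cycling value lay above every other value.

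Genes of chromosome segregation followed. Birc5 (survivin, of the chromosomal passenger complex) had 134, 169 and 157 CPM in cycling cells, against 0.814, 1.28 and 1.20 CPM in the other cells of the same libraries (log2 fold change 7.07 ± 0.24, adjusted p = 2.49e-07, edgeR). Its partner kinase Aurkb differed by 5.12 ± 0.40 on the log2 scale, and Aurka, the Aurora kinase of the spindle poles, by 2.23 ± 0.62. Tpx2, which activates Aurora A, differed by 5.92 ± 0.36, and the Polo-like kinase gene Plk1 by 5.69 ± 0.82. Of the checkpoint and kinetochore genes, Bub1 differed by 6.06 ± 0.60, Bub1b by 4.51 ± 0.43, Cenpf by 6.02 ± 0.30 and the kinetochore motor Cenpe by 4.64 ± 0.33. The spindle genes Nusap1 (5.36 ± 0.45), Kif11 (4.19 ± 0.37) and Prc1 (3.08 ± 0.23) and the cyclin-destruction genes Ube2c (6.46 ± 0.30) and Cdc20 (3.71 ± 0.76) were all higher, with values given as log2 fold change ± SE.

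S phase genes rose in the same cells. Cdc6, which loads the helicase at origins, had 39.6, 50.1 and 31.7 CPM in cycling cells, against 0.543, 0.319 and 0.399 CPM in other cells (log2 fold change 6.38 ± 0.42). Rrm2, the regulated subunit of ribonucleotide reductase, had 139, 147 and 107 CPM against 1.90, 2.87 and 1.596 CPM (5.92 ± 0.23), whereas Rrm1, its partner subunit, had 119.7, 149 and 148 CPM against 25.5, 29.4 and 27.5 CPM (2.34 ± 0.16). The partner subunits thus differed in fold, and in both the cycling values lay above all others. The 6 MCM helicase genes lay between 1.56 ± 0.13 (Mcm6) and 3.08 ± 0.18 (Mcm5) on the log2 scale, and Pcna at 1.76 ± 0.12. Pcna was abundant outside the cycling cells as well, at 329.6, 421 and 454 CPM in cycling cells against 105, 132 and 118 CPM. Clspn, a replication checkpoint adaptor, differed by 5.14 ± 0.23, Uhrf1, which maintains DNA methylation at the fork, by 4.87 ± 0.26, E2f1, a transcription factor of S phase genes, by 3.72 ± 0.29, Tyms by 3.67 ± 0.22 and the helicase cofactor Gins2 by 3.45 ± 0.69. Slbp, the histone mRNA stem-loop binding protein, had the smallest fold of the S phase genes (1.18 ± 0.12).

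**Figure D2:**
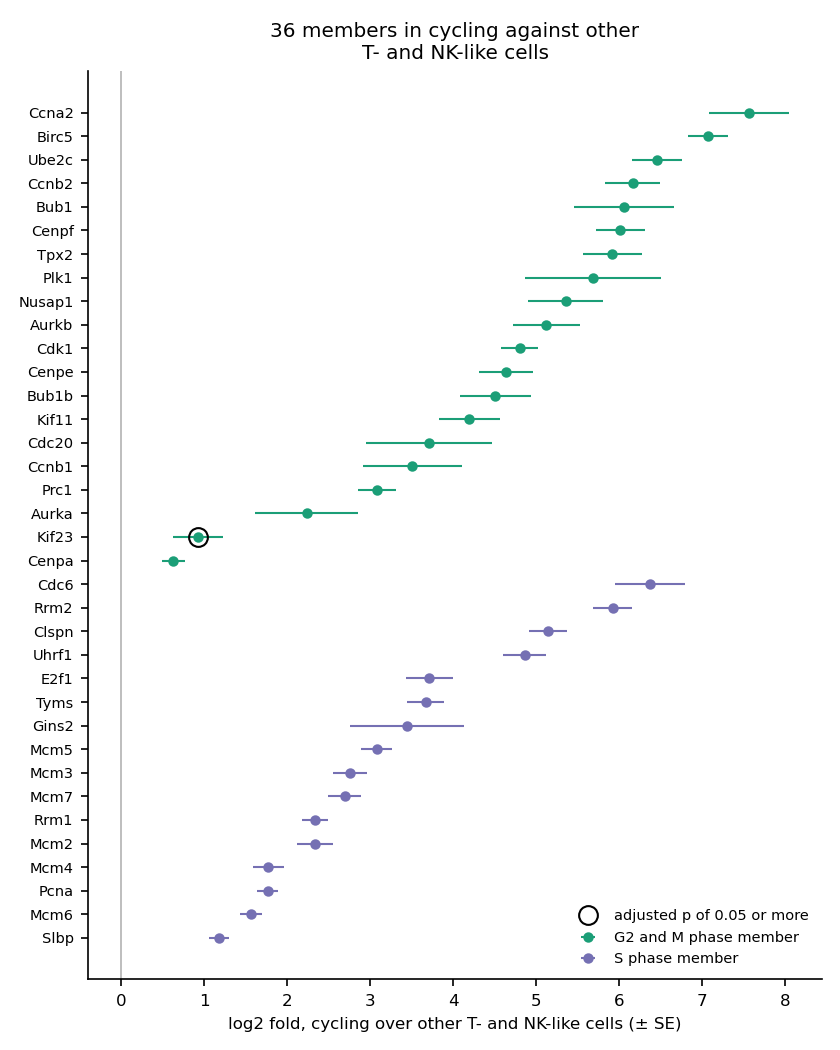
Log2 fold change (± SE) of each gene in cycling against other T- and NK-like cells over 3 libraries, by phase group. Cenpa (0.63) and Kif23 (0.92) lie at the low end, and Ccna2 (7.56) at the high end; Mki67 and Top2a chose the cells.

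Cenpa and Kif23 were set apart by their level outside cycling cells. Cenpa (ENSMUSG00000029177, chr5:30666777-30674830, plus strand, mm10), the histone H3 variant of centromeres, had 133, 167 and 98.0 CPM in cycling cells, against 86.8, 94.4 and 75.01 CPM in other cells of the same libraries. The groups did not overlap and the fold was small (log2 fold change 0.63 ± 0.14, adjusted p = 0.0163, edgeR). The call was lost with DESeq2 (adjusted p = 0.106) and without TKO replicate 1 (0.098) or TKO replicate 2 (0.112). Kif23 (ENSMUSG00000032254, chr9:61915905-61946774, minus strand), a kinesin of the central spindle, had 43.6, 70.1 and 60.3 CPM in cycling cells, against 20.6, 21.1 and 59.4 CPM, and was the gene that was not called (0.92 ± 0.30, adjusted p = 0.0731). In DKO replicate 2 its levels in cycling and other cells were close. Together Cenpa and Kif23 gave 14.0% of the UMIs of the 20 G2 and M phase genes outside the gate in cycling T- and NK-like cells, and 76.0% (1213 of 1596 UMIs) in the other T- and NK-like cells. The same share was 83.7% in dendritic-like and 61% in neutrophil-like cells that were not cycling, and 18.9% in fibroblast-like and 26.9% in epithelial-like cells that were not cycling. With these 2 genes left out, at least 5 UMIs of the remaining 18 were found in 42 of 95 cycling T- and NK-like cells (44.2%) and in 6 of 828 others (0.725%).

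**Figure D3:**
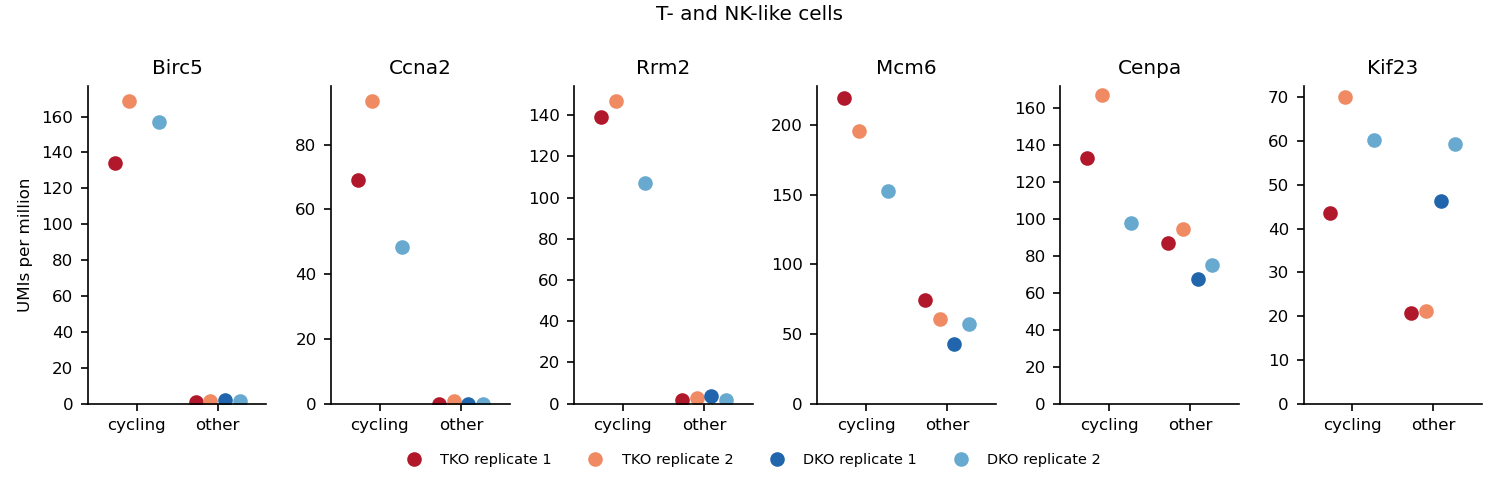
Level (CPM, linear axes) of Birc5, Ccna2, Rrm2, Mcm6, Cenpa and Kif23 in cycling and in the other T- and NK-like cells, by library. DKO replicate 1 is drawn for the other cells only. Birc5, Ccna2 and Rrm2 are low in the other cells, whereas Mcm6, Cenpa and Kif23 keep a level there.

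Promoters are shown for the 3 genes of each phase group with the widest fold among those called and present in the RefSeq promoter table (GRCm38.p6), because these genes rose together in cycling cells. Of the 38 genes 33 matched, and Mcm4, Gins2, Ccna2, Tpx2 and Aurkb were not matched. Each stretch runs from 250 bases before the gene's start to 30 bases after it, 5′ to 3′ on the gene's strand. Capitals mark 3 motifs read on both strands: TTTGAA, the cell cycle homology region (CHR); CCAAT, the NF-Y box; and 4 E2F words (TTTCCCGC, TTTGGCGC, TTTCGCGC, TTTGCCGC). For G2 and M phase, Birc5 (chr11:117848987-117849266, plus strand) holds none of the motifs, Ube2c (chr2:164769679-164769958, plus strand) holds 1 CHR and 6 CCAAT, 2 of which overlap on opposite strands, and Ccnb2 (chr9:70421525-70421804, minus strand) holds 2 CHR and 3 CCAAT.
Birc5: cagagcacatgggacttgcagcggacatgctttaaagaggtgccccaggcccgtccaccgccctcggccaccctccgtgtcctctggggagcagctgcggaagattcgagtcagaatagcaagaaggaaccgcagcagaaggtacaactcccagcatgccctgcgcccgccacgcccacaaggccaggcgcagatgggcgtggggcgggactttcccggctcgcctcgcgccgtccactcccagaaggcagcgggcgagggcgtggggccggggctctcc
Ube2c: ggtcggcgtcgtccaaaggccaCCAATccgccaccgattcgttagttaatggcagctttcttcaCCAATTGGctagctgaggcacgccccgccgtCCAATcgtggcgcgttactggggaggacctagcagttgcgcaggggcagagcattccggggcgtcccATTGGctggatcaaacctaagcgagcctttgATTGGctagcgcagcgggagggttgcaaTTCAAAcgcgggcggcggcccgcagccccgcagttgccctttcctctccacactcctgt
Ccnb2: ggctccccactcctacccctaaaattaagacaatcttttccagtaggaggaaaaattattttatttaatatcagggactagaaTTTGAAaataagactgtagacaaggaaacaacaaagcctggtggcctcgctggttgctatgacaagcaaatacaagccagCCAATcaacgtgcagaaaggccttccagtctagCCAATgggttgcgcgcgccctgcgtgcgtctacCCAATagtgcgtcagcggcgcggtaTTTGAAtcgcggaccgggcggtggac

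The S phase promoters were Cdc6 (chr11:98907901-98908180, plus strand) with 1 E2F word, Rrm2 (chr12:24708004-24708283, plus strand) with 1 CCAAT, and Clspn (chr4:126556730-126557009, plus strand) with 2 CCAAT and 1 E2F word.
Cdc6: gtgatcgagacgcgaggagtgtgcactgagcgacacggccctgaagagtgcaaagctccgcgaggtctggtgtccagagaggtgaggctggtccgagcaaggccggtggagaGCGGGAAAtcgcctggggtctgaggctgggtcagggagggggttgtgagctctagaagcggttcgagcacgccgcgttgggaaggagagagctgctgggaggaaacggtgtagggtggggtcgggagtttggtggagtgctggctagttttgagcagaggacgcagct
Rrm2: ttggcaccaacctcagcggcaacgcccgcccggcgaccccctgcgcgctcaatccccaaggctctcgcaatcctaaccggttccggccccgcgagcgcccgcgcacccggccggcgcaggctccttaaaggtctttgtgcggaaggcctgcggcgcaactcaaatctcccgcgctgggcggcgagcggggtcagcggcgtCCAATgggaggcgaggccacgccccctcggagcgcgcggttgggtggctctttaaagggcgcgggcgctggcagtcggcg
Clspn: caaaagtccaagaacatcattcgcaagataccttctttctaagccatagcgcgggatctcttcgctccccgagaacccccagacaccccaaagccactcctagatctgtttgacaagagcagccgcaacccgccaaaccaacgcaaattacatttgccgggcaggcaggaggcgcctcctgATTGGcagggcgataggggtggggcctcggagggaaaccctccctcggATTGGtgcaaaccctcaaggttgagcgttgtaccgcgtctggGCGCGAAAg

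Over the whole windows of 300 bases, the CHR letters were in 14 of 19 matched G2 and M phase genes (73.7%) and in 1 of 14 S phase genes (7.14%), against 20.2% of all 27025 symbols and 17.9% of all 32851 windows. The S phase gene with it was Mcm2. An E2F word was in 7 of 14 S phase genes (50%) and in 1 of 19 G2 and M phase genes (5.26%), which was Cdk1, against 2.61% of all symbols and 2.26% of windows. CCAAT was in 17 of 19 G2 and M phase genes and 11 of 14 S phase genes, against 41.1% of all symbols and 37.4% of windows. Cenpa and Kif23, with the smallest folds of the G2 and M phase genes outside the gate, both held a CHR and a CCAAT. A match describes letters in a window and says nothing of whether a factor binds there.

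Other cell cycle genes, from lists outside the 38, went with them in T- and NK-like cells. Of 33 listed further G2 and M phase genes 31 were tested and 30 rose, and of 27 further S phase genes all 27 were tested and rose (adjusted p under 0.05, edgeR). Their median log2 fold changes were 4.13 and 2.74. Of the cyclins, kinases and E2F activators of G1, 6 of 10 tested rose and none fell. Inhibitors and pocket proteins split, with 5 of 16 tested higher and 3 lower. E2f7 (7.40) and E2f8 (7.11), repressor members of the E2F family, and Rbl1 (2.03), Cdkn2c (1.81) and Cdkn2a (2.36) were higher on the log2 scale. Cdkn1b, which encodes the CDK inhibitor p27, fell by 0.62 on the log2 scale. The antiproliferative genes Btg1 and Btg2 were at -0.92 and -0.77. Outside all lists, the smallest p-values among genes that rose belonged to Pclaf, a PCNA-binding factor (log2 fold change 8.56), Hist1h1b, Spc24, Hist1h2ab, Hist1h3c, Asf1b, Hmgn2 and H2afx. Among genes that fell they belonged to Il18r1 (-1.56), Il7r (-1.70), Palld, Malat1, Tcp11l2, Antxr2, March3 and Cd40lg (-2.24). Il7r is the interleukin-7 receptor of resting and memory T cells and Cd40lg a helper T cell ligand, and cell subsets that differ between the cycling and other cells were not separated in this comparison.

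The same contrast in smaller classes, added after the first results were seen, reached fewer genes. In dendritic-like cells 17 of the 36 genes were tested and 2 rose, Pcna (log2 fold change 1.25 ± 0.21, adjusted p = 0.0434, edgeR) and Rrm2 (6.87 ± 0.83, adjusted p = 0.0147), where 0.183% of all genes tested were called higher and 0.0916% lower. At an unadjusted p under 0.05, 13 of the 17 were higher, and 8.24% of all genes passed in either direction. In macrophage- and monocyte-like cells 0 of 15 were called by edgeR, with 8 at an unadjusted p under 0.05, where 0% of all genes were called higher and 7.14% passed the unadjusted threshold.

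The share of cycling cells was compared between TKO and DKO tumours within each class, and no class differed beyond what 2 libraries a group can show. The exact two-sided permutation test of 2 against 2 libraries cannot give a p below 0.333. T- and NK-like cells had 12.9% (43 of 333) and 9.40% (28 of 298) cycling cells in TKO libraries, against 1.15% (1 of 87) and 11.2% (23 of 205) in DKO libraries. The groups overlapped, since DKO replicate 2 lay between the TKO libraries. The difference was 4.97 percentage points (TKO 11.2 ± 2.49%, DKO 6.18 ± 7.12%; SD, n = 2 each; exact permutation p = 0.667), and without DKO replicate 1 it was -0.07 points. The exact 95% interval of DKO replicate 1 ran from 0.0291 to 6.24% and that of DKO replicate 2 from 7.25 to 16.4%, so the DKO libraries differed from each other by more than counting error.

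Within this class the share was also taken by CD8 and Foxp3 transcripts, and it was highest among cells with a CD8 transcript in each library, on 1 cycling cell in DKO replicate 1. Cells with both transcripts count in both groups. Cells with a Cd8a or Cd8b1 UMI, the coreceptor of cytotoxic T cells, were cycling in 20% (27 of 135) and 19.8% (16 of 81) in TKO libraries, against 5.26% (1 of 19) and 18.03% (11 of 61) in DKO libraries. Both TKO libraries lay above both DKO libraries (difference 8.23 points, exact permutation p = 0.333, the smallest possible), with DKO replicate 1 resting on 19 cells and without it a difference of 1.84 points. Cells with a Foxp3 UMI, the regulatory T cell factor, were cycling in 17.4% and 4.35%, against 0% and 5.71%, and cells with neither in 7.41% and 5.53%, against 0% and 9.65%. Cells with both gate genes made up 35 of 296 CD8 cells (11.8%), 3 of 128 Foxp3 cells (2.34%) and 14 of 520 cells with neither (2.69%). By library, T- and NK-like cells with both genes were 6.01% and 5.03% of the class in TKO libraries, against 0% (0 of 87, which allows up to 3.45%) and 7.32% in DKO libraries.

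The other classes gave differences in both directions. Macrophage- and monocyte-like cells had 11.8% (9 of 76) and 7.14% (3 of 42) in TKO libraries, against 13.9% (5 of 36) and 25% (8 of 32) in DKO libraries, without overlap (difference -9.95 points, exact permutation p = 0.333). It was -15.5 points without DKO replicate 1 and -4.40 points without DKO replicate 2. Epithelial-like cells had 3.85% in each TKO library (2 of 52 and 1 of 26), against 5.71% (2 of 35) and 6.82% (6 of 88), also without overlap (-2.42 points, exact permutation p = 0.333). These shares rest on 1 to 9 cells a library. Dendritic-like cells had 12.05% and 18.2%, against 24.3% and 14.0%, and fibroblast-like cells 6.90% and 13.8%, against 6.90% and 19.5%. Both of these overlapped. The dendritic-like difference of -4.02 points turned to 1.16 points without DKO replicate 1, and the fibroblast-like difference of -2.86 points turned to 3.45 points without DKO replicate 2. In the neutrophil-like class 1.23% and 2.67% were gated, against 0.329% and 1.42%.

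Depth differed between classes and bears on these shares. The lowest and highest library medians were 6090.5 and 7247.5 UMIs in neutrophil-like, 11247.5 and 13214 in T- and NK-like, 26946 and 31804 in dendritic-like and 40929.5 and 55445 in fibroblast-like cells. Epithelial-like cells were shallower in TKO libraries, with medians of 10172.5 and 8202 UMIs, against 20132 and 21763.5 in DKO libraries. This class was mixed. A finer clustering (Leiden resolution 2.0) parted it into 125 cells led by Svs5 and Svs2 and 76 led by Psca and Krt14. The latter numbered 16 and 3 in TKO libraries, against 18 and 39 in DKO libraries. Median depth relative to the library median was 0.916 in the former and 5.81 in the latter. The part of this mix in the differences was not tested. With each cell thinned to 2000 UMIs, T- and NK-like cells were cycling in 3.30% and 3.70% of TKO cells, against 0% and 4.39% of DKO cells. Thinned epithelial-like cells were cycling in 2.17% and 0% of TKO cells, against 2.86% and 0% of DKO cells, and the groups overlapped. Thinned macrophage- and monocyte-like cells were cycling in 2.63% (2 of 76) and 0% of TKO cells, against 0% and 0% of DKO cells. The DKO values (0 of 36 and 0 of 32) allow up to 8.33 and 9.38%. The difference of 1.32 points thus rests on 2 cells of TKO replicate 1. After thinning no dendritic-like cell of a TKO library or of DKO replicate 1, and no fibroblast-like cell of any library, was cycling. The order of the classes in the unthinned shares cannot be told apart from their depth.

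**Figure D4:**
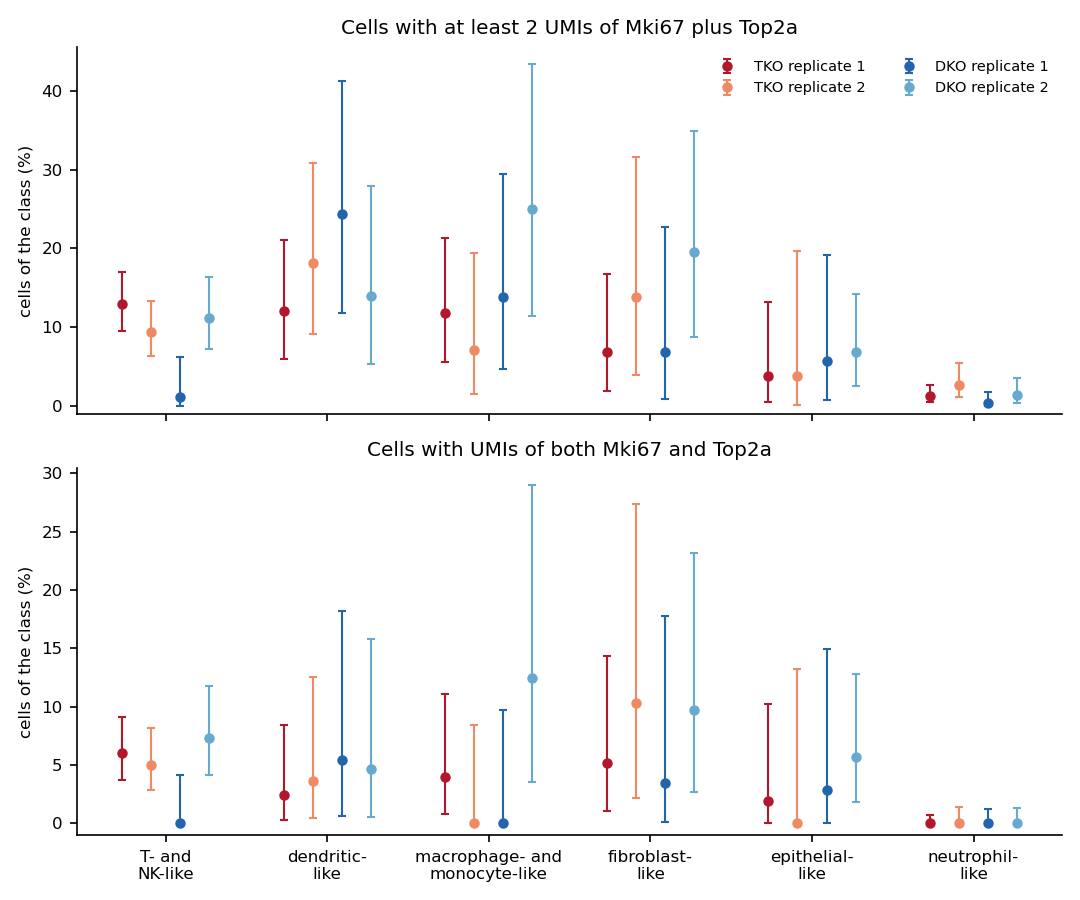
Percent of cells with at least 2 UMIs of Mki67 plus Top2a, by class and library, with exact 95% binomial intervals that cover counting error only. DKO replicate 1 lies at 1.15% in T- and NK-like cells, below the other 3 libraries (9.40 to 12.9%).

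Summed over a class, none of the genes was called between TKO and DKO. By edgeR's quasi-likelihood test, 0 of the 38 genes were called in any class or over all cells at an adjusted p under 0.05. The number that passed the filter on low counts was 37 in T- and NK-like, 30 in fibroblast-like, 25 in epithelial-like, 19 in dendritic-like, 14 in macrophage- and monocyte-like and 9 in neutrophil-like cells, and 38 over all cells. The share of all genes called was as low. Called higher and lower were 0.0275% and 0.0275% in T- and NK-like, 0.0355% and 0.0237% in dendritic-like, 0.0263% and 0% in macrophage- and monocyte-like, 0.0113% and 0% in neutrophil-like cells, and 0% each way in epithelial-like, fibroblast-like and all cells. At an unadjusted p under 0.05 by edgeR, 2 of the genes passed in T- and NK-like, 5 in dendritic-like, 1 in epithelial-like, 1 in macrophage- and monocyte-like and 0 in fibroblast-like, neutrophil-like and all cells, against 5.21%, 7.27%, 5.68%, 7.21%, 3.77%, 4.19% and 11.8% of all genes tested. DESeq2 called 1 gene in dendritic-like cells (Birc5, adjusted p = 0.0314) and 1 in epithelial-like cells (Mki67, adjusted p = 0.0428), and 0 in the other classes. In these sums a change in the number of cycling cells and a change in RNA per cell cannot be told apart.

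In T- and NK-like cells the 38 genes followed 1 library. The 22 G2 and M phase genes summed to 512 and 601 CPM in TKO libraries, against 164 and 555 CPM in DKO libraries, and the 16 S phase genes to 759 and 702 CPM, against 328 and 767 CPM. DKO replicate 1 was lowest for both sums, and DKO replicate 2 lay among or above the TKO libraries. DKO replicate 1 was also the lowest of the 4 libraries for 37 of the 38 genes. Both TKO libraries exceeded both DKO libraries for 13 of the 38 genes, all 13 among the 37 tested and among them Top2a, Cdk1, Ccna2, Ccnb2, Rrm2 and Cdc6, where 18.9% of all genes tested did so, and lay below both for 1, where 15.6% did. The median log2 fold change over the 37 tested genes was 0.49, and without DKO replicate 1 it was -0.05. Rrm2, for example, had 30.8 and 26.0 CPM in TKO libraries, against 3.798 and 23.7 CPM in DKO libraries, so that the gap between the groups was narrow outside DKO replicate 1.

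Kif23 had the opposite order. It had 25.5 and 28.9 CPM (119 and 108 UMIs) in T- and NK-like cells of TKO libraries, against 45.6 and 59.6 CPM (48 and 189 UMIs) in DKO libraries. The groups did not overlap, but the difference was not called (edgeR log2 fold change -0.997 ± 0.214, adjusted p = 0.313). The same order held in the cells that were not cycling, at 20.6 and 21.1 CPM in TKO libraries, against 46.4 and 59.4 CPM. In neutrophil-like cells Kif23 stood at 24.6 and 37.6 CPM in TKO libraries, against 20.1 and 21.1 CPM, and in macrophage- and monocyte-like cells at 13.7 and 14.3 CPM, against 4.62 and 3.71 CPM. There the TKO libraries were the higher ones (macrophage- and monocyte-like 1.64 ± 0.57, adjusted p = 0.604, edgeR). In macrophage- and monocyte-like cells Kif23 could pass the count filter only through the TKO libraries, where it was high. The filter thus partly set its direction there. Cenpa, the other gene with a level outside cycling cells, had 96.6 and 106 CPM in T- and NK-like cells, against 66.5 and 79.8 CPM, without overlap and not called (0.44 ± 0.17, adjusted p = 0.862).

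In dendritic-like cells many of the genes had low values in both TKO libraries, on few transcripts. None was called by edgeR, and DESeq2 called Birc5 lower in TKO (adjusted p = 0.0314). Both TKO libraries lay below both DKO libraries for 20 of the 38 genes, 9 of them among the 19 tested, where 21.3% of all genes tested did so, and above both for 0, where 16% did. Birc5 had 0.418 and 5.04 CPM (1 and 8 UMIs) in TKO libraries, against 35.5 and 20.5 CPM (37 and 27 UMIs) in DKO libraries. The groups were far apart and the difference was called by DESeq2, as above, but not by edgeR (log2 fold change -3.45 ± 0.77, adjusted p = 0.279). Nusap1 had 1.67 and 1.89 CPM, against 12.5 and 7.58 CPM (-2.39 ± 0.63, adjusted p = 0.335), and Tyms, the thymidylate synthase, 6.69 and 11.3 CPM, against 27.8 and 22.7 CPM (-1.46 ± 0.40, adjusted p = 0.355). Neither gene's groups overlapped. Birc5 and Nusap1 could pass the count filter only through the DKO libraries, where they were high. The filter thus partly set their direction, and the count among the tested genes shares this limit. Mki67 (-0.86 ± 0.30) and Uhrf1 (-0.96 ± 0.42) also passed at the unadjusted threshold. Single cells carried much of these sums: 1 cell held 48.9% and 41.8% of the G2 and M phase UMIs of the DKO libraries, against 3.75% and 28.9% in the TKO libraries. Their part in the differences was not tested. Each of the 4 libraries had 2 dendritic-like cells with both gate genes.

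Single cells weighed as much in the epithelial-like cells, the mixed class (above) that would hold the cells in which Cre is meant to act. Mki67 had 32.0 and 54.3 CPM in TKO libraries, against 7.16 and 8.70 CPM in DKO libraries, without overlap (log2 fold change 2.35 ± 0.37, adjusted p = 0.439, edgeR). In TKO replicate 1, 44 of the 50 Mki67 UMIs lay in 1 cell, and in TKO replicate 2 all 30 did. Top2a had 35.2 and 0 CPM, against 2.69 and 11.6 CPM, and Birc5 14.7 and 1.81 CPM, against 1.79 and 20.6 CPM. For these genes the groups overlapped. One epithelial-like cell each held 84.6% and 74.7% of the G2 and M phase UMIs of the TKO libraries, against 23.3% and 32.3% in the DKO libraries. Both TKO libraries lay above both DKO libraries for 4 of the 38 genes and below for 1. The matching share over all genes, without the count filter, was not taken. Among the 25 genes tested there these numbers were 1 and 0, against 16.5% and 20.3% of all genes tested.

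In fibroblast-like cells the spread between replicates was as wide as any gap between groups. The G2 and M phase genes summed to 96.4 and 278 CPM in TKO libraries, against 63.9 and 422 CPM in DKO libraries, and the S phase genes to 290.3 and 749 CPM, against 251 and 461 CPM. The replicates numbered 1 were low and those numbered 2 high in both groups. Single cells held 20.8% and 67.7% of the G2 and M phase UMIs in TKO libraries, against 43% and 51.2% in DKO libraries. Among the genes tested in fibroblast-like cells, both TKO libraries lay above both DKO libraries for 1 of 30 and below for 0, against 16% and 15.9% of all genes tested. In macrophage- and monocyte-like cells the numbers were 2 and 0 of 14, against 22.2% and 15.9%, and in neutrophil-like cells 2 and 1 of 9, against 19.5% and 10.4%. Over all cells they were 9 and 0 of 38, against 24.6% and 21.2%. With the genes under the count filter included, they were 2 and 0 of 38 in fibroblast-like, 5 and 0 in macrophage- and monocyte-like and 8 and 5 in neutrophil-like cells. The share over all genes without the filter was not taken, so these counts have no baseline and are not read as a result. The same holds for the count over all 38 in dendritic-like cells.

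**Figure D5:**
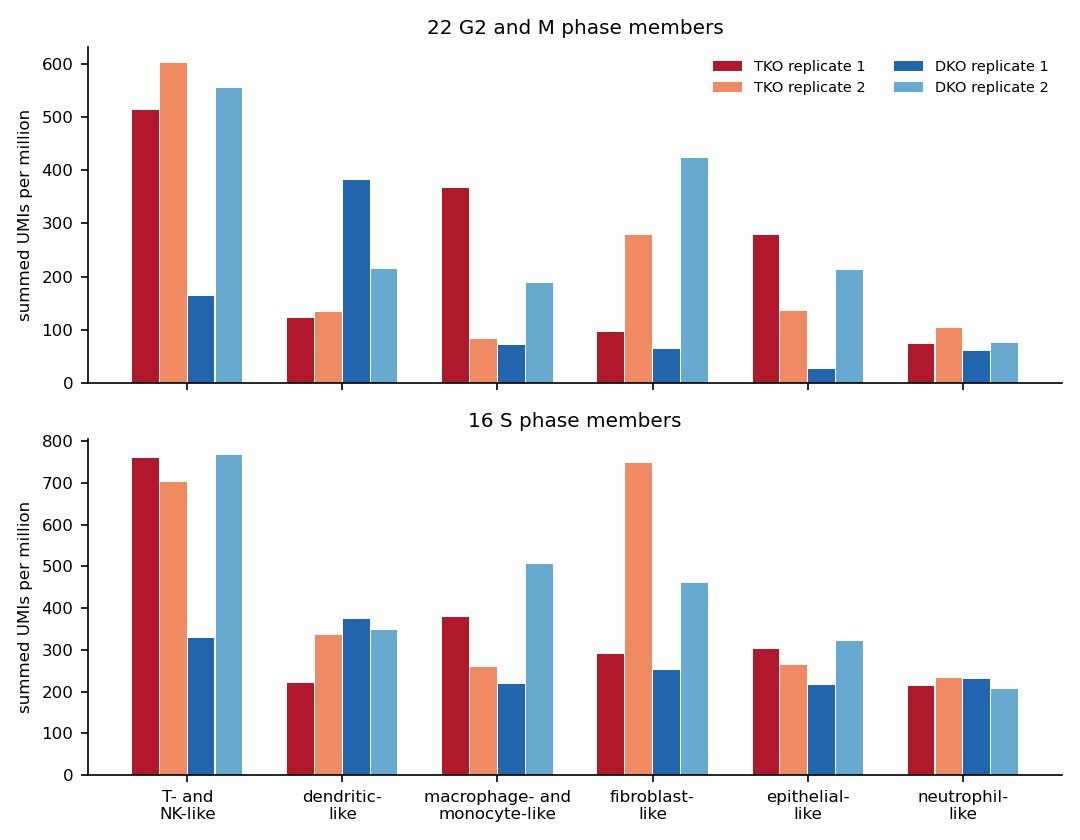
Summed level (CPM) of the 22 G2 and M phase genes and of the 16 S phase genes in each class and library, TKO left of DKO. In T- and NK-like cells DKO replicate 1 lies at 164 and 328 CPM, apart from the other 3 libraries, and in dendritic-like cells both TKO libraries (123 and 133 CPM) lie below both DKO libraries (381 and 214 CPM) for the G2 and M phase genes.

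Across classes, and with no test since classes are clusters of the same cells, 28 of the 38 genes had their highest mean CPM over the 4 libraries in T- and NK-like cells, 8 in fibroblast-like cells and 2 (Cdc20 and Plk1) in epithelial-like cells. The neutrophil-like class was lowest for 29 of the 38. The lists of further cell cycle genes gave 0 called genes between TKO and DKO in every class by edgeR. In T- and NK-like cells their median log2 fold changes were 0.41 for G2 and M phase, 0.12 for S phase, 0.01 for the cyclins, kinases and E2F activators of G1 and 0.06 for inhibitors, against 0.01 over all genes.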

How the data were processed

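The deposited files hold raw UMI counts per gene and cell barcode, whole numbers with no normalization, made with Cell Ranger 7.0.0 per the file headers and with STAR on mm10 per the submitters' processing notes. The 38 genes and the lists were chosen with earlier results of these data known. Barcodes under 200 genes or over 20% mitochondrial UMIs were removed. Cells were clustered with scanpy 1.11.5 (2000 variable genes, 30 components, 20 neighbours, Leiden resolution 1.0) without the cell cycle and histone genes, and clusters were named from marker lists. To be named, a cluster had to show 3 or more markers with a log2 rise of 1.0 and score over 0.5, a rule set with the data known, and clusters that failed it hold 292 cells. Doublets were kept; in 86 cells (2.54%), 9 of them cycling, the leading hashtag held under 80% of hashtag counts.

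UMIs were summed per library and class and tested with edgeR 4.0.16 (TMM, filterByExpr, robust quasi-likelihood) in R 4.3.3 over all genes, with Benjamini-Hochberg adjustment at 0.05, and SE = |log2 fold change| / square root of F. The count filter can be met by the 2 libraries of a single group, so a gene high in that group alone could be tested. CPM divides a sum by all UMIs of the same cells. On simulated counts with a dispersion of 0.05 the fits between TKO and DKO recovered 17 to 26% of genes changed 2-fold and 93 to 100% of those changed 4-fold. That dispersion was set for every gene and not taken from these data. Birc5 in dendritic-like cells, at a log2 fold change of -3.45, was not called by edgeR, and Top2a in epithelial-like cells had an SE of 1.30. The recovery therefore does not tell which changes in the 38 genes could be found. No library repeated another, since chi-square statistics of their gene counts were 22.2 to 61.2 times the degrees of freedom. All 38 genes could be named. From the other lists, genes past the threshold could be named, with up to 4 of the smallest p per list and comparison. Outside the lists, the 8 with the smallest p each way in the cycling contrast could be named. Among inhibitors more than 4 are named, chosen after their values were seen. Promoters are RefSeq sequences. Alternatives were other gates, thinning, DESeq2 1.42.0, no count filter, a replicate block, other clustering and leaving out each library. The genotypes are given in part, and what is left out is not reported here.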

Additional observations from a re-analysis of the deposited data

Results flagged for a closer look

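The following differences (TKO minus DKO) separated the groups without overlap, with TKO above DKO in at least 1 class and below it in at least 1 other. The difference between classes was not tested. The share of cycling cells was higher in TKO among T- and NK-like cells with a CD8 UMI (8.23 points) and lower in TKO among epithelial-like (-2.42 points) and macrophage- and monocyte-like cells (-9.95 points). After thinning to 2000 UMIs the macrophage- and monocyte-like difference was 1.32 points, on 2 cells of TKO replicate 1, and the epithelial-like groups overlapped. Counted by at least 5 UMIs of the 18 G2 and M phase genes without Cenpa and Kif23, all 3 overlapped: CD8 cells had 7.41% and 11.1% in TKO, against 0% and 11.5% in DKO, epithelial-like cells 7.69% and 3.85%, against 0% and 9.09%, and macrophage- and monocyte-like cells 6.58% and 0%, against 0% and 12.5%. Kif23 was higher in TKO in neutrophil-like (10.5 CPM) and macrophage- and monocyte-like cells (9.80 CPM), and lower in TKO in T- and NK-like (-25.4 CPM) and dendritic-like cells (-2.21 CPM). Mki67 was higher in neutrophil-like (10.5 CPM) and epithelial-like cells (35.2 CPM), and lower in dendritic-like cells (-15.1 CPM). Nusap1 was higher in T- and NK-like cells (11.99 CPM) and lower in dendritic-like cells (-8.25 CPM). Slbp was higher in macrophage- and monocyte-like cells (17.7 CPM) and lower in dendritic-like cells (-12.5 CPM). Kif23 in macrophage- and monocyte-like cells and Nusap1 in dendritic-like cells could pass the count filter only through the group where they were high. For scale, TKO lay above DKO without overlap for 16 to 22.2% of all genes tested in a class, and below it for 10.4 to 21.3%.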

How the results depend on the processing

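Groups of 2 libraries limit every comparison, and results for rare cells rest on few UMIs. Counting cells by at least 5 UMIs of the other 20 G2 and M phase genes, where Cenpa and Kif23 supply many UMIs outside cycling cells, turned the sign of the TKO minus DKO share in neutrophil-like (-0.871 points), T- and NK-like (-4.62), epithelial-like (2.58), fibroblast-like (1.45), all (-0.264), CD8 (-4.41), Foxp3 (-7.18) and remaining T- and NK-like cells (-3.38). Without those 2 genes, a setting chosen after seeing the data, it turned in neutrophil-like (-0.200), epithelial-like (1.22), fibroblast-like (3.89), all (-0.300), Foxp3 (-3.11) and remaining T- and NK-like cells (-0.709). Requiring both gate genes, also chosen after seeing the data, turned it in fibroblast-like (1.16) and remaining T- and NK-like cells (-1.08). Thinning turned it in macrophage- and monocyte-like (1.32, on 2 cells) and remaining T- and NK-like cells (-0.509). A gate of 1 UMI turned it in CD8 cells (-1.14), and a gate of 3 UMIs in remaining T- and NK-like cells (-0.458). The causes were not tested. Leaving out each library in turn gave -0.0651 to 10.0 points in T- and NK-like, -9.21 to 1.16 in dendritic-like, -9.17 to 3.45 in fibroblast-like, -15.5 to -4.40 in macrophage- and monocyte-like, -2.97 to -1.87 in epithelial-like, 0.356 to 1.80 in neutrophil-like, 1.84 to 14.6 in CD8, 1.49 to 14.5 in Foxp3, -1.03 to 3.34 in all and -3.18 to 6.47 in remaining T- and NK-like cells. Leaving out cells with mixed hashtags, chosen after seeing the data, and other clusterings turned none of these signs.

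Of the 38 genes, edgeR without the count filter called 1 in T- and NK-like, 6 in dendritic-like, 1 in epithelial-like, 2 in macrophage- and monocyte-like and 1 in fibroblast-like cells, DESeq2 called 1 in dendritic-like and 1 in epithelial-like cells, and leaving out libraries gave 0 to 5 in T- and NK-like cells. Over all genes, calls in a class or over all cells numbered 0 to 6, against 10 to 352 with DESeq2 and 83 to 276 without the filter. The upper ends of 352 and 276 are those over all cells. Among the classes DESeq2 called most genes in epithelial-like cells, 27 higher and 13 lower. In the cycling contrast 31 to 35 genes were called with a library left out, 33 with DESeq2 and 13 after thinning, where fewer genes could be tested and Kif23 turned to -0.45 on the log2 scale. All genes called there numbered 1521, against 800 with DESeq2 and 211 after thinning. Libraries with the same replicate number were not shown to pair (correlation of their deviations 0.0727, with 2 pairs). A replicate block cannot change the difference in T- and NK-like shares (4.97 points), since each replicate number occurs once in each group. It left 0 of the 38 genes called in each class, and moved the calls over all genes in a class to between 0 and 66. Without the library block 35 genes were called in the cycling contrast.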
